A study of Mus musculus with 3 samples.

Results

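Among the 21098 H3K4me3 regions called on the autosomes of adult mouse neural stem cells, 1590 held H3K27me3 wholly inside them, with neither end covered. These confined regions were chosen by position alone. An H3K4me3 region on chromosomes 1 to 19 was a member when it shared at least 1 bp with an H3K27me3 region while its first and its last base pair lay in none. All 21998 H3K4me3 regions and 117512 H3K27me3 regions of the series come from neurospheres, floating cultures grown from cells of the subventricular zone, where adult neural stem cells reside, of male C57BL/6 mice labelled wild type. Each mark was measured once by chromatin immunoprecipitation and sequencing, with Millipore antibodies to H3K4me3 and to H3K27me3, and an input without antibody was not analysed here. The study asked which chromatin state the promoters of long noncoding RNAs carry in these cells. The files hold a start, an end and a score for each region, on mouse build mm9. Gene positions on mm9 were not used here, so members are named by coordinates, and no direction of transcription is given.

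Trimethylation of histone H3 at lysine 4 is laid down by the SET1 and MLL complexes and marks active and poised promoters, while trimethylation at lysine 27 is laid down by Polycomb repressive complex 2 and accompanies repression. Promoters that carry both are called bivalent and are well known at developmental regulators in stem cells, where the Polycomb mark often spreads past the H3K4me3 peak. In a bulk culture, both marks at a place can come from the same nucleosomes, from the 2 alleles or from different cells, and these cannot be told apart here. The ends of a region are those of the peak caller, so confined means that the called H3K27me3 stretch ended before the called H3K4me3 region did.

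Confined regions were a minority of the places with both marks. On the autosomes 7113 H3K4me3 regions (33.7%) touched H3K27me3, and the 1590 confined ones were 22.4% of them (95% Wilson interval 21.4 to 23.3%) and 7.54% of all H3K4me3 regions. The 22.4% fell to 9.46% when no H3K27me3 was allowed within 200 bp of either end, and to 14.4% when H3K27me3 regions were first merged over gaps of up to 3000 bp. The others had H3K27me3 over 1 end only (2870 regions), over both ends with a gap (593) or over the full length (2060), and 13985 had none. Seen from the other list, 8045 of the 115609 autosomal H3K27me3 regions (6.96%) touched H3K4me3, and 1736 of these (21.6%) were the ones lying inside a member. Members occurred on every autosome, from 46 on chromosome 19 to 114 on chromosomes 2 and 7. As a share of the H3K4me3 regions with H3K27me3 they ran from 15.6% on chromosome 11 to 33.6% on chromosome 18, with a median of 21.8% over the 19 autosomes. Chromosome 11 was also the autosome with the largest part of its length in H3K27me3 (10.9%). Since each mark was measured in 1 library, nothing here carries a replicate error, and regions of a library are not replicates. The comparisons below are therefore descriptions, and intervals cover counting error only and are too narrow where neighbouring regions depend on each other.

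A confined region typically held a single short H3K27me3 region. The members had a median width of 2146 bp, with the middle 50% between 1438 and 2946 bp and a full range of 253 to 38993 bp. The H3K27me3 inside had a median length of 901 bp (middle 50% from 701 to 1271 bp, lowest 216 bp). One H3K27me3 region was found in 1452 members (91.3%, 95% Wilson interval 89.8 to 92.6%), 2 in 130 (8.18%) and 3 in 8. The H3K27me3 regions inside were of ordinary size for their list. Their median width was 854 bp, against 879 bp over all autosomal H3K27me3 regions and 1857 bp over those touching H3K4me3 in any other way. Both comparisons are partly set by the rule, since a long H3K27me3 region rarely fits inside an H3K4me3 region.

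The covered share spread widely. Its median was 51.6%, with the middle 50% from 33.5 to 72.1%. H3K27me3 covered under 25% of the region in 212 members (13.3%), 25 to 50% in 546 (34.3%), 50 to 75% in 486 (30.6%) and at least 75% in 346 (21.8%). The share was lower in wider H3K4me3 regions. In members of up to 1 kb the median H3K27me3 length was 630 bp and the median share 77.0%. At 2 to 3 kb these medians were 1021 bp and 43.2%, and at 3 to 5 kb they were 986 bp and 27.8%. In the 73 members over 5 kb, H3K27me3 had a median length of 1316 bp and a median share of 23.1%. The length of H3K27me3 thus differed little between regions of 1.5 kb and 5 kb, while its share fell. Across the 1590 members, Spearman's rho was -0.62 between width and share, which has width in both, 0.35 between covered length and share, which also have a term in common, and 0.42 between width and covered length. The share also moved with the H3K27me3 score. Members with a score under 75 had a median length of 658 bp and a share of 36.9%, and those from 500 to 3100 had 1724 bp and 77.4%, at median widths of 1827 and 2254 bp.

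**Figure D1:**
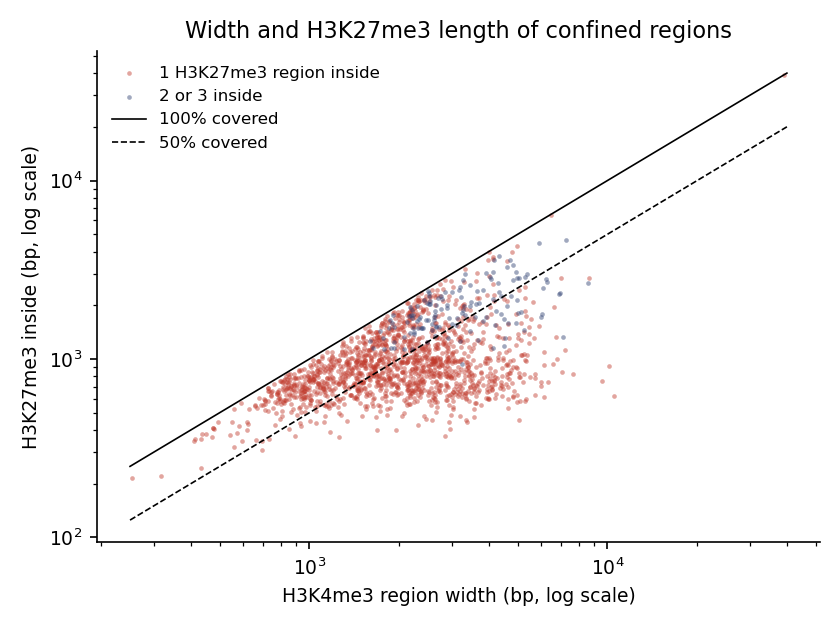
Length of H3K27me3 inside each confined H3K4me3 region (vertical, bp, log scale) against the width of that region (horizontal, bp, log scale), with 1 point for each of the 1590 members, red with 1 H3K27me3 region inside and blue with 2 or 3. The lines mark full and 50% cover, and most points form a band near the median length of 901 bp that crosses from over 50% cover in narrow regions to under 50% in wide ones.

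Members with more than 1 H3K27me3 region inside were wider. Holding more than 1 stretch itself calls for a wider region and a greater covered length, so these differences are partly built in. The 138 members with more than 1 had a median width of 3121 bp against 2038 bp for those with 1. They also had more H3K27me3 (median 1798 against 855 bp) and a higher share covered (63.1 against 50.02%). The gaps between neighbouring H3K27me3 regions in the same member had a median of 253 bp, a range from 1 to 2668 bp, and were under 500 bp in 71.2% of cases. No member of up to 1.5 kb held more than 1, against 17.3% of those at 3 to 5 kb and 23.3% of those over 5 kb.

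The position of H3K27me3 along the region showed neither a lean to one side nor a general preference for the centre. The room left free was measured as the bases between the lower end of the region and the first H3K27me3 base plus those between the last H3K27me3 base and the upper end. The offset is the part of that room on the lower side, so that 0 puts H3K27me3 at the lower end, 1 at the upper end, and a stretch of any length can reach every value. Of the members, 567 (35.7%, 95% Wilson interval 33.3 to 38.0%) had the offset in the lowest of 3 equal parts, 497 (31.3%, 29.0 to 33.6%) in the middle and 526 (33.1%, 30.8 to 35.4%) in the highest. The 10 equal parts of the offset held from 132 members (8.30%) in the fifth to 196 (12.3%) in the second. Over the 19 autosomes the share in the middle part ran from 21.3% on chromosome 3 to 40.4% on chromosome 16. With 1 H3K27me3 region inside it was 31.0% (450 of 1452). Allowing no H3K27me3 within 200 bp of either end, inside or outside the region, raised it to 46.1% of 673 members. That rule removes the stretches next to an end, and also members with H3K27me3 just outside one.

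Cover was nevertheless highest at the centre, as the geometry of a long stretch in a short region requires. The stretch crossed the midpoint of the H3K4me3 region in 1215 members (76.4%) and lay on a single side of it in 375 (23.6%). Averaged over members, 9.42% of the base pairs in the first twentieth of the region lay in H3K27me3, 73.6% in the eleventh and 9.18% in the last. The smaller of the gaps to an end had a median of 167 bp and the larger a median of 642 bp. The smaller gap was at most 100 bp in 577 members (36.3%) and at most 200 bp in 886 (55.7%). Both gaps exceeded 500 bp in 242 members (15.2%).

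**Figure D2:**
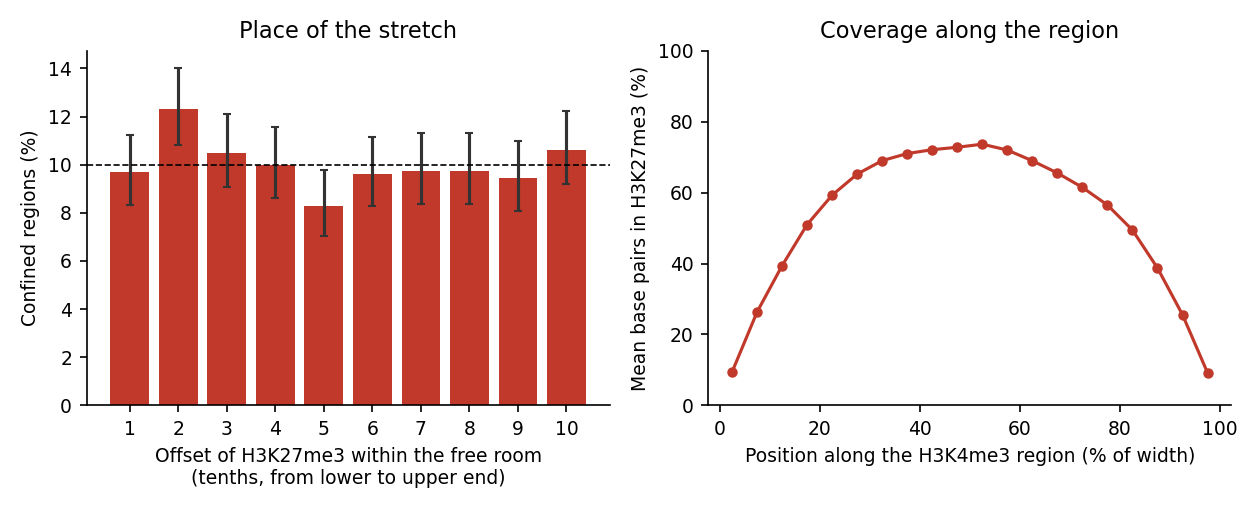
Left, share of the 1590 confined regions (%, bars with 95% Wilson intervals) by offset in 10 equal parts, from H3K27me3 at the lower end (1) to the upper end (10), with a dashed line at 10%. Right, mean share of base pairs in H3K27me3 (%) in twentieths along the H3K4me3 region, which rises from 9.42% at the lower end to 73.6% past the centre, while the bars on the left stay between 8.30 and 12.3%.

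Wide members differed from narrow ones in this respect. Members were split for this purpose into 3 equal ranges by how close the smaller gap came to equalling the larger, from H3K27me3 at an end to H3K27me3 at the centre of the room. In members of up to 1 kb, 57 of 179 (31.8%, 95% Wilson interval 25.5 to 39.0%) were in the range nearest to an end. At 1 to 1.5 kb it was 81 of 260 (31.2%, 25.8 to 37.0%), and at 1.5 to 2 kb 76 of 289 (26.3%, 21.6 to 31.7%). At 2 to 3 kb the value was 35.8% (31.7 to 40.2%). At 3 to 5 kb it was 152 of 312 (48.7%, 43.2 to 54.2%), and over 5 kb it was 41.1% (30.5 to 52.6%). In members of 3 to 5 kb, H3K27me3 thus lay toward an end more often than in narrower ones. The median smaller gap over all 312 members of that width was 339 bp.

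The flanks were added by taking all wide H3K4me3 regions, whether or not they held H3K27me3. The 4544 autosomal H3K4me3 regions of 3 kb or more were lined up by their nearer end, and the centres of H3K27me3 regions of up to 1500 bp were counted. These regions include the 385 members of that width, which supplied 289 of the 539 centres (53.6%) within 1500 bp inside an end, so the count is not independent of the positions above. The density was 39.8 centres per Mb in the first 500 bp inside the end, 48.9 per Mb from 500 to 1000 bp inside and 29.9 per Mb from 1000 to 1500 bp inside. Outside it was 29.7 per Mb in the first 500 bp, 35.7 per Mb from 500 to 1000 bp and 44.9 per Mb at 4 to 5 kb. The mean over the autosomes was 37.4 per Mb. Short H3K27me3 regions were therefore about as dense just inside the ends of wide H3K4me3 regions as in the flanks, with the highest value of these bins at 500 to 1000 bp inside (222 centres) and the lowest values next to the end on the outside (135) and deeper in the region (136).

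**Figure D3:**
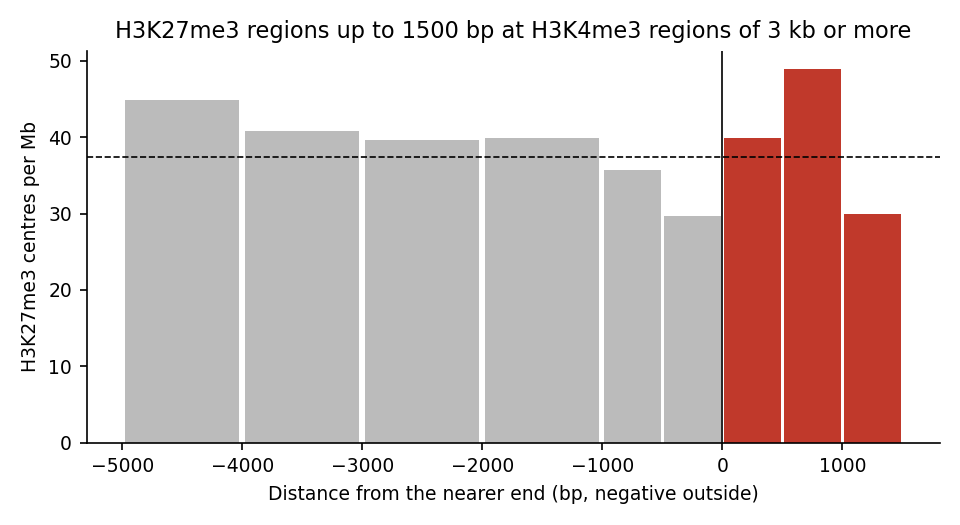
Centres of H3K27me3 regions of up to 1500 bp per Mb (vertical) by distance from the nearer end of the 4544 autosomal H3K4me3 regions of 3 kb or more (horizontal, bp, negative outside in grey, inside in red). The dashed line is the autosomal mean of 37.4 per Mb, and the bin from 500 to 1000 bp inside is the highest of the 9 at 48.9 per Mb.

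The H3K27me3 found inside had scores typical of the H3K27me3 list and lower than those of H3K27me3 touching H3K4me3 in other ways. The score is a peak caller's value whose scale is not stated. It starts at 50 in both lists and piles up at 3100, here called the top score, and it is compared only within a list. The highest H3K27me3 score inside a member had a median of 124, with the middle 50% from 76.0 to 272. It was under 100 in 627 members (39.4%), and 41.8% of the H3K27me3 regions inside members were under 100, against 44.5% of all autosomal ones. The highest score inside reached the top score in 16 (1.01%, against 2.57% of all autosomal H3K27me3 regions). The 1736 H3K27me3 regions inside members had a median score of 118. That lies close to the 112 of the whole autosomal list and the 108 of H3K27me3 regions away from H3K4me3. H3K27me3 regions that touched H3K4me3 in any other way had a median of 668.

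The other classes with both marks had higher H3K27me3 scores. The median was 347 where H3K27me3 crossed 1 end, 1431 where it crossed both ends with a gap, and 3100 where it covered the whole region, and the median of the confined class was the lowest of these 4 on each of the 19 autosomes. Length is tied to this contrast, because score and length rise together (Spearman's rho 0.74 between H3K27me3 score and covered length over the members) and a long H3K27me3 region rarely has room inside. Of the H3K27me3 regions touching H3K4me3, 54.8% of those up to 600 bp lay inside a member, 38.7% of those from 800 to 1000 bp and 1.17% of those over 2500 bp. By score, the share inside a member was 48.8% under 75 and 1.07% at the top score.

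**Figure D4:**
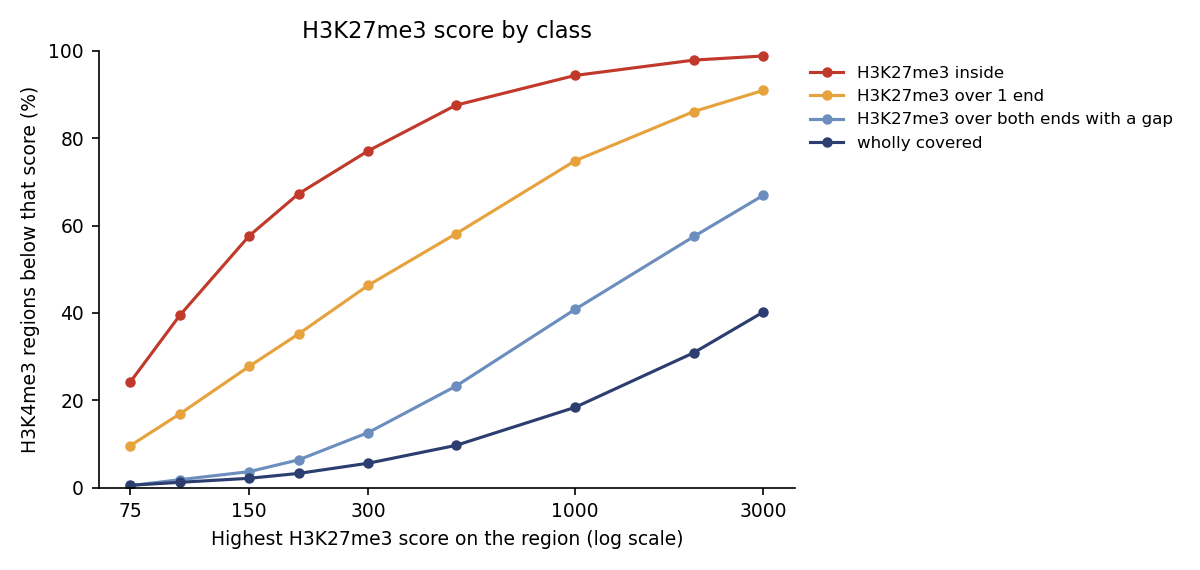
Share of H3K4me3 regions (%, vertical) whose highest H3K27me3 score lies below the value on the horizontal log axis, for the 1590 regions with H3K27me3 inside and the 3 other classes with both marks. The confined class is highest throughout, with 39.4% under a score of 100, against 16.9% where H3K27me3 crosses 1 end and 1.26% where it covers the whole region.

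On the H3K4me3 side the confined regions resembled regions without any H3K27me3. The top H3K4me3 score was reached by 972 members (61.1%, 95% Wilson interval 58.7 to 63.5%), against 53% of all autosomal H3K4me3 regions. Regions with no H3K27me3 were at 60.7% (59.9 to 61.5%), those with H3K27me3 over 1 end at 39.6% (37.8 to 41.4%), those with it over both ends and a gap at 47.9% (43.9 to 51.9%) and wholly covered ones at 14.3% (12.8 to 15.8%). The confined share was above that of regions covered at 1 end on 19 of 19 autosomes, and above that of regions with no H3K27me3 on 12 of 19. The likeness to the latter depends on the end rule. The 673 members with no H3K27me3 within 200 bp of either end, inside or outside, were wider (median 2643 bp), and the top score was reached by 83.2%. Widths moved with this in 4 of the 5 classes, with a median of 2146 bp in confined regions, 2212 bp with no H3K27me3, 1664 bp over 1 end and 1395 bp in wholly covered regions. The regions covered over both ends with a gap did not follow, with a median of 2215 bp. The confined rule favours wide regions, which have more room for a stretch with both ends free. Of the H3K4me3 regions with H3K27me3, 14.5% of those up to 1 kb were confined, against 42.7% of those over 5 kb. The differences in width and top score from regions covered at 1 end or wholly are thus partly set by the rule. Within H3K4me3 regions of 1.5 to 2 kb the order of confined regions and regions with no H3K27me3 turned. The top score was reached by 49.1% (43.4 to 54.9%) of the former and 54.2% (51.7 to 56.7%) of the latter. Regions of that width with H3K27me3 over 1 end were at 31.2% and wholly covered ones at 11.9%. At 2 to 3 kb the values were 89.9% (86.9 to 92.3%) for confined regions, 94.3% with none, 80.6% over 1 end and 54.1% when wholly covered. At both of these widths the confined class therefore lay between regions with no H3K27me3 and the other classes with both marks, and nearer to the former. Below 1.5 kb few regions of any class reached the top score, and there confined regions of 1 to 1.5 kb had the largest share, 8.46% (5.65 to 12.5%) against 4.79% with none.

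H3K27me3 around the members did not build up toward the region. In the 50 kb on each side a median of 3.60% of base pairs lay in H3K27me3 (middle 50% from 1.03 to 11.6%, highest 85.8%), in a median of 4 other H3K27me3 regions. At least 1 other H3K27me3 region within 50 kb was found for 1379 members (86.7%, 95% Wilson interval 84.97 to 88.3%), against 86.5% of all autosomal H3K4me3 regions. It was on both sides for 845 (53.1%) and on a single side for 534 (33.6%). Within 10 kb 905 members (56.9%) had another, against 42.7% of regions with no H3K27me3 and 79.6% of those covered at 1 end. The counts were lower within shorter distances, at 721 members (45.3%) within 5 kb and 352 (22.1%) within 1 kb. The nearest was a median of 6427 bp away. The median of 3.60% became 2.05% when only H3K27me3 regions with a score of at least 100 were kept, and 1.90% when they were merged. Members were chosen anew in each case, which left 1014 and 1048 of them, so these are not the same regions measured again. The 211 members (13.3%) with none within 50 kb had a median H3K27me3 score of 118 and a median share covered of 53.9%, and the top H3K4me3 score was reached by 60.7%. These values lay close to those of the members with neighbours (125, 51.5% and 61.2%). At the other extreme, 231 members (14.5%) had at least 20% of the surrounding 50 kb in H3K27me3.

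By distance, the mean share of base pairs in H3K27me3 around confined regions was 7.08% within 1 kb, 8.80% from there to 5 kb, 8.65% from 5 to 10 kb and 8.57% beyond that to 50 kb, a nearly level profile a little above the autosomal mean of 6.01%. Around regions with H3K27me3 over 1 end the values fell from 36.6% within 1 kb to 15.8% at 10 to 50 kb, and around wholly covered regions from 76.5% to 25.1%. Around regions with no H3K27me3 they rose from 2.39% to 7.60%. How the classes were defined fixes part of what is seen next to the ends. At 10 to 50 kb, which the class rule did not use, confined regions (8.57%) stood closer to regions with no H3K27me3 (7.60%) than to those with it over 1 end. The median within 50 kb was lower for confined regions than for regions covered at 1 end on 19 of 19 autosomes (3.60 against 11.6% over all). It was higher than for regions with no H3K27me3 (2.64%) on 14 of 19. This second order turned when H3K27me3 regions were first merged over gaps of up to 3000 bp and the classes formed anew. The difference was then -1.15 percentage points in place of 0.96.

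**Figure D5:**
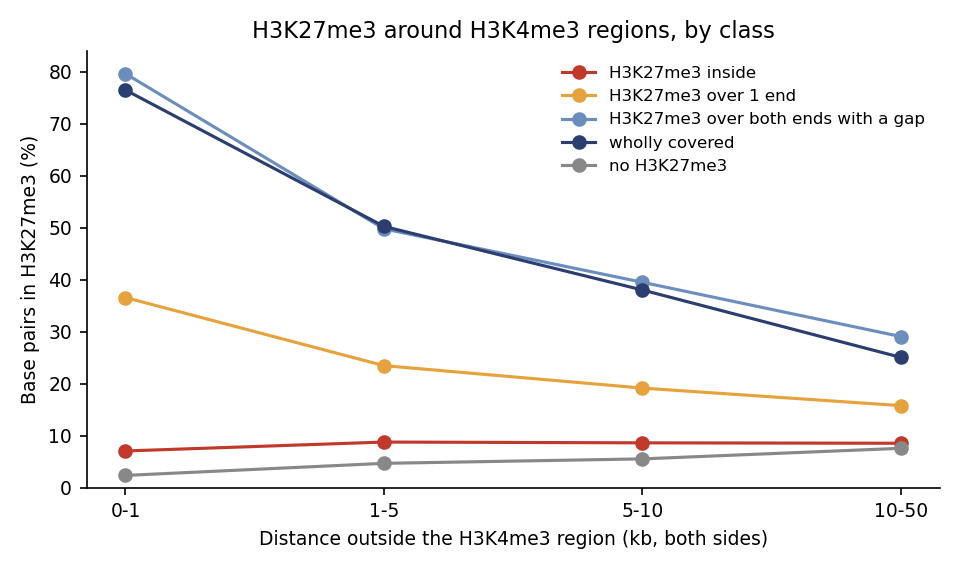
Share of base pairs in H3K27me3 (%, vertical) in 4 distance bins outside the H3K4me3 regions (horizontal, kb, both sides together), for the 5 classes of autosomal H3K4me3 regions. Confined regions (red) stay between 7.08 and 8.80%, while the other 3 classes with H3K27me3 fall with distance and regions without it rise from 2.39 to 7.60%.

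The side on which H3K27me3 lay inside the region was set against the side of the nearest H3K27me3 outside. Over the 1378 members with an outside region within 50 kb and unequal distances and gaps, the inner stretch was nearer to the end facing it in 701 (50.9%, 95% Wilson interval 48.2 to 53.5%). When the outside region was within 1 kb the count was 203 of 352 (57.7%, 52.5 to 62.7%). At 1 to 5 kb it was 49.1% (44.0 to 54.1%) and at 5 to 50 kb 48.2% (44.5 to 52.1%). An inner stretch on the near side was thus more frequent than one on the far side when the neighbour lay within 1 kb. Among the 1379 members with neighbours within 50 kb, the highest score inside exceeded that of every neighbour in 431 (31.3%) and exceeded the median neighbour in 793 (57.5%). These shares were not computed for other H3K27me3 regions, so they cannot be read as particular to members. Over the members H3K27me3 score and the H3K27me3 outside were unrelated in rank (Spearman's rho -0.0013).

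Confined regions also stood farther from other H3K4me3 regions. Their median distance to the nearest, from end to end, was 30107 bp. It was 19105 bp for regions with no H3K27me3, 19604 bp with H3K27me3 over 1 end, 24607 bp over both ends with a gap and 16524 bp for wholly covered ones. The median was larger for confined regions than for those with no H3K27me3 on 18 of 19 autosomes, and larger than for those covered at both ends with a gap on 11 of 19. The difference with no H3K27me3 was also present among regions of 2 to 3 kb, at 37319 against 19437 bp. For the members with at least 20% of the surrounding 50 kb in H3K27me3 the median distance was 11893 bp, and for those with no other H3K27me3 within 50 kb it was 86733 bp.

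The top H3K27me3 score was reached inside 16 members, with 75.1 to 99.7% of the region covered. Of these, 2 scored above 3100 and 14 tied at 3100, where the rank went to the wider H3K27me3 region. The first in rank lay on chromosome 10 from 102829716 to 102832463, a region of 2748 bp at the top H3K4me3 score. Its H3K27me3 stretch of 2258 bp started 12 bp inside the lower end and stopped 478 bp before the upper end. It had no other H3K27me3 within 50 kb, and the nearest was 100.6 kb away. The sixth, on chromosome 5 from 48373474 to 48378244, left gaps of 489 and 321 bp around 3961 bp of H3K27me3. In the remaining 4 of the first 6 both gaps were under 100 bp. These were chromosome 2 from 98504859 to 98505717 (gaps of 27 and 56 bp), chromosome 9 from 2999824 to 3038816 (36 and 67 bp), chromosome 17 from 39979509 to 39985953 (2 and 24 bp) and chromosome 7 from 128534715 to 128538718 (30 and 1 bp). The chromosome 9 region is the widest member, at 39.0 kb. Whether repeated sequence raised both libraries at such places was not tested. In all, 106 members (6.67%) had both gaps of at most 100 bp. They had a median width of 903 bp, a median share covered of 90.8% and a median H3K27me3 score of 226, and the top H3K4me3 score was reached by 20.8%.

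Among the 211 members with no H3K27me3 neighbour within 50 kb, the 6 with the highest scores had 1 H3K27me3 region each, with 75.97 to 90.2% of the H3K4me3 region covered, and stood 62.2 to 115.2 kb from the next H3K27me3. After the chromosome 10 region above came chromosome 7 from 89919342 to 89921097, 1756 bp wide with 1584 bp of H3K27me3 at the top score. The next was chromosome 2 from 118198313 to 118200358, 2046 bp wide with 1715 bp of H3K27me3 at a score of 2460. On chromosome 16 there were 2 such sites, from 88288987 to 88291616 and from 44331599 to 44333766, with scores of 1812 and 1806. The sixth lay on chromosome 14 from 96916826 to 96918604, with a score of 1801, and the nearest other H3K4me3 region was over 1 Mb away (1160153 bp). In 6 of 6 the gap at the lower end was the smaller, at 12 to 76 bp against 121 to 603 bp at the upper end, which was noticed after the values were seen. It did not extend to the 35 members with a score of at least 500 and no neighbour within 50 kb, where the lower gap was the smaller in 17 (48.6%), nor to all members, where it was so in 808 of 1589 with unequal gaps (50.8%).

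In the widest members the covered share was mostly small, although members over 5 kb had the longest median H3K27me3 of the width classes (1316 bp). After the chromosome 9 region came a region of 10.5 kb on chromosome 18 (83078532 to 83089040). Its H3K27me3 stretch of 620 bp, with a score of 60.8, lay 279 bp from the lower end and covered 5.90%, the lowest share of all members. A 10.1 kb region on chromosome 13 (34216358 to 34226472) held 909 bp and one of 9.59 kb on chromosome 5 (58105089 to 58114673) held 754 bp, both far from either end with smaller gaps of 2879 and 2902 bp. On chromosome 5 from 111844971 to 111853611, 2829 bp of H3K27me3 with a score of 529 lay near the middle of an 8.64 kb region, and 36.0% of the surrounding 50 kb was H3K27me3. The sixth, on chromosome 17 from 46162120 to 46170693, held 3 H3K27me3 regions in its lower part, 21 bp from that end and 3766 bp from the other. It is also among the 8 members with 3 H3K27me3 regions. The one of these with the widest single H3K27me3 region was on chromosome 8 from 96333412 to 96337999, with 71.4% of 4588 bp covered and a highest score of 221.

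The rule has a sharp edge, and the members next to it resembled the regions just beyond it. The 577 members whose smaller gap was at most 100 bp had a median width of 1496 bp, 75.1% cover, an H3K27me3 score of 169 and 3.65% H3K27me3 within 50 kb outside. The 485 regions with H3K27me3 across 1 end by at most 100 bp had 1485 bp, 81.6%, 222 and 4.59%. The 1013 members with a larger smallest gap were wider (2382 bp), less covered (42.0%) and lower in H3K27me3 score (112). The 2385 regions crossed by more than 100 bp had a score of 388 and 13.5% H3K27me3 outside.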

How the data were processed

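Regions were read from the 2 deposited lists, 1 library per mark. The authors' score per region was used as deposited. It has no stated scale, starts at 50.01 for H3K4me3 and 50 for H3K27me3, and was compared only within a list. The submitters' processing notes list Bowtie 1.1.2 and the build mm9, and region names in the deposited files are those of MACS. Its version and threshold, how the input entered and the depth of each library are not given in the sources at hand, so no detection limit can be set. The deposited start (counted from 0) and end of each region were used as they stand, and positions are printed from 1.

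H3K4me3 regions were classed by the H3K27me3 over their first and last base pair and by a shared length of at least 1 bp. Shares carry 95% Wilson intervals for counting error only. To judge the alternative settings, medians were given 95% intervals from the ranks of their values. Differences between classes took the interval of the confined class, with the other class held fixed, so the counting error of the other class is left out. No test was made, since each mark has 1 library. Orders between classes were also counted over the 19 autosomes. Autosomal means use the last region end as chromosome length. Regions were named by 5 rules, taking 6 each: highest H3K27me3 score inside, widest, most H3K27me3 regions inside, largest covered share, and highest score with no other H3K27me3 within 50 kb. Not all are printed. The members, lists and alternatives were chosen with earlier results of these data known. The analysis of genes was not made, since the gene and promoter tables at hand are of another build, and for the same reason no sequence is printed.

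The classes were checked on 300 simulated regions against per-base masks (0 differed) and against bedtools 2.31.1 on the real lists (1590 confined regions, a difference of 0). Software was SciPy 1.17.1, pandas 2.3.3 and NumPy 2.4.6 on Python 3.11.15, with plots by matplotlib 3.10.9. The alternatives were a shared length of 200 bp, a margin of 200 bp at the ends, an H3K27me3 score of at least 100, merging of either list, addition of X, and a distance of 10 kb. Leaving out the 106 members with near-identical ends was added after seeing the data.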

Additional observations from a re-analysis of the deposited data

How the results depend on the processing

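Over 8 alternatives, 95 values of 13 results were recomputed. Of these, 55 stayed within the counting interval of the reported value, 39 moved beyond it and 1 turned its direction. A turn was counted only where the interval of the reported difference left out 0. The difference at the top score from regions with none, 0.45 points as reported, had an interval that included 0. It became -1.24 points with H3K4me3 merged and -0.20 points with X added, both within that interval. A shared length of 200 bp changed no result beyond its interval, since the shortest H3K27me3 stretch inside a member was 216 bp. Adding X moved none beyond its interval either. With no H3K27me3 within 200 bp of either end, 9.46% of H3K4me3 regions with H3K27me3 were confined (22.4% as reported), with 35.9% median cover, 46.1% in the middle part of the free room, 83.2% at the top H3K4me3 score, a median width of 2643 bp and a median H3K27me3 score of 103. The class over 1 end was formed with the same margin, so it also took in regions with H3K27me3 only within 200 bp of an end. The differences from that altered class were -5.85 percentage points in H3K27me3 outside and 32.3 points at the top score. They are therefore not changes in the confined regions alone. From regions with none the difference was 22.5 points at the top score. This margin removes stretches next to an end, and with them narrow regions. With H3K27me3 scores of at least 100, 17.0% were confined, with 57.4% cover, 95.4% holding 1 H3K27me3 region, 71.6% with others within 50 kb, 2.05% of base pairs outside, 66.1% at the top score, a median width of 2210 bp and an H3K27me3 score of 221. The differences were -7.31 and 24.5 points from regions covered at 1 end and 6.84 points at the top score from those with none. With H3K27me3 merged over gaps of up to 3000 bp, 14.4% were confined, with 48.4% cover, 100% holding 1 region by construction, 79.9% with others within 50 kb, 1.90% outside, 65.6% at the top score and a median width of 2219 bp. The differences were -8.46 and 17.6 points from regions covered at 1 end and 4.26 points at the top score from those with none, and the difference in H3K27me3 outside from those with none turned from 0.96 to -1.15 points. The cause was not tested. Merging H3K4me3 over gaps of up to 1000 bp moved only the median width, to 2214 bp. Within 10 kb in place of 50 kb, 56.9% of members had other H3K27me3, and the differences in H3K27me3 outside were -12.5 points from regions covered at 1 end and 3.22 points from those with none. Without the 106 members with both gaps of at most 100 bp, an alternative chosen after seeing the data, 21.2% were confined, with 49.0% cover and 64.0% at the top score, and the differences at the top score were 24.4 points from regions covered at 1 end and 3.33 points from those with none. The alternatives for the H3K27me3 score and for the differences between classes were also added after seeing the data. No paired analysis was possible because there is a single library for either mark. Depth is not known, so weak H3K27me3 that the caller missed at the ends of a region cannot be told from its absence.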

Other observations

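The X chromosome, outside the main set, held 49 confined regions among its 701 H3K4me3 regions (6.99%). They were 34.3% (95% Wilson interval 26.99 to 42.4%) of the 143 H3K4me3 regions of X with H3K27me3, above the highest autosome at 33.6%. Their median width was 1778 bp, their median share covered 57.0% and their median H3K27me3 score 107, and 36.7% of them were at the top H3K4me3 score, below the lowest autosome at 43.2%. Other H3K27me3 within 50 kb was found for 49.0% of the X members, against 39.4% of the H3K4me3 regions of X with no H3K27me3 and 86.7% of the autosomal members. Width and the share at the top score were not computed for the other H3K4me3 regions of X. The values of the X members therefore cannot be read as particular to confined regions.

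Chromosome 18 had the highest autosomal share of confined regions among those with H3K27me3, 33.6%. Its members were the narrowest by median (1579 bp) and the least often at the top H3K4me3 score (43.2%). Its H3K4me3 regions with no H3K27me3 were likewise the lowest of the 19 autosomes in both, at 1841 bp and 50.8%. Of the members of chromosome 18, 75.7% had other H3K27me3 within 50 kb, the lowest value of the 19 autosomes, with chromosome 3 next at 76.4%. For regions of chromosome 18 with no H3K27me3 it was 78.9%, which was not the lowest (76.3% on chromosome 3). Confined regions were below regions with none in this share on 3 of 19 autosomes, chromosome 18 among them.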
